A study of Mus musculus with 5 samples.

Results

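Lipid-associated macrophages are described by a short set of genes, of which 7 were followed here: Trem2, Tyrobp, Gpnmb, Spp1, Apoe, Lgals3 and Cd9. They were taken by gene symbol from the 31053 genes in the matrices, and all 7 were present once. Their unique molecular identifiers (UMIs, 1 for each captured RNA molecule) were counted in macrophages and in the other cells of the mouse heart. Macrophage barcodes were those with at least 3 UMIs summed over C1qa, C1qb and C1qc, the genes of the complement C1q chains, and are called C1q barcodes. This held for 5642 of the 35838 cell barcodes kept.

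The study sequenced single cells of mouse hearts on the 10x Genomics 5′ platform. Controls were Ctla4+/+Pdcd1-/- (replicates 1 and 2, from 4 mice) and diseased mice were Ctla4+/-Pdcd1-/- (replicates 3, 4 and 5, from 10 mice), so both groups lacked Pdcd1, which encodes the inhibitory receptor PD-1, and they differed in 1 copy of Ctla4, which encodes the inhibitory receptor CTLA-4. Hearts were digested and pooled, and live nucleated cells were sorted as DRAQ5+DAPI-. Age, sex and processing batch are not given in the sources used here, a library is a pool and not a mouse, and p-values measure the spread between these 5 libraries, in which batch and genotype cannot be told apart. The genotype and sort labels of the samples count upward (Pdcd1 to Pdcd3, DRAQ5 to DRAQ9), whereas the design text has Pdcd1 and DRAQ5 throughout, and the latter was followed.

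Trem2 is a surface receptor of myeloid cells that binds lipids, lipoproteins and cell debris, and it signals through the adaptor Tyrobp (DAP12), whose phosphorylated motifs recruit the kinase Syk. Macrophages that have taken up much lipid or many dead cells are known to turn on lysosomal, lipid-handling and matrix genes, among them Gpnmb, Spp1, Lgals3 and Cd9, and to secrete apolipoprotein E. In the heart such cells have been described beside resident macrophages that carry Lyve1 and Timd4.

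Unfiltered libraries held 24991704 to 55053988 UMIs, and kept barcodes had medians of 3317 to 4479 UMIs. C1q barcodes numbered 1748 and 488 in the control libraries, listed here and below by replicate number, and 623, 1940 and 843 in the disease libraries, or 20.4%, 9.14%, 11.2%, 21.2% and 11.7% of kept barcodes. Csf1r, which encodes a defining receptor of macrophages, had a UMI in 70.0% and 88.9% of control and 85.6%, 69.9% and 80.4% of disease C1q barcodes. Among the 4139 barcodes with at least 10 C1q UMIs it was found in 95.6% to 96.8%, and among the 1503 with fewer in 12.8% to 40.6%, so values are also given for the stricter gate. Control replicate 1 and disease replicate 4 stood apart: 25.4% and 24.8% of their C1q barcodes had only 3 or 4 C1q UMIs, against 7.38% to 16.0% elsewhere. Between 47 and 89 barcodes were shared by each of the 10 pairs of libraries. In T or NK barcodes Ctla4 was at 422 and 72.3 CPM (UMIs per 1000000 UMIs of the same barcodes) in the controls, with 2 copies, and 149, 648 and 553 CPM in the disease libraries, with 1 copy. The groups overlapped and the levels did not follow copy number. Pdcd1 had UMIs in T or NK barcodes of all 5 libraries (155 to 1071 CPM). The labels do not say which part of either gene was deleted, so neither level checks the genotype.

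The promoter sequences of 3 members are shown because these genes have the most distinct cell patterns below. Trem2 was found in C1q barcodes, Gpnmb in Schwann and fibroblast barcodes and in few C1q barcodes, and Spp1 in T cells and some macrophages. Each is the 250 bases before the first annotated start, from RefSeq on GRCm38.p6, 5′ to 3′ on the strand of the gene, and capitals mark GAGGAA or its reverse complement, the core bound by the myeloid factor PU.1. Trem2 lies at chr17:48346151-48346400 (plus strand), Gpnmb at chr6:49036268-49036517 (plus strand) and Spp1 at chr5:104434861-104435110 (plus strand).
Trem2: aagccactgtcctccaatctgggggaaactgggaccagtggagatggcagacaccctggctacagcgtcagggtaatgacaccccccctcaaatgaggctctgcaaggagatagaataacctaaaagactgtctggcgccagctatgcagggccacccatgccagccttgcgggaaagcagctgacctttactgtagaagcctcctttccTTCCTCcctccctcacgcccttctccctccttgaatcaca
Gpnmb: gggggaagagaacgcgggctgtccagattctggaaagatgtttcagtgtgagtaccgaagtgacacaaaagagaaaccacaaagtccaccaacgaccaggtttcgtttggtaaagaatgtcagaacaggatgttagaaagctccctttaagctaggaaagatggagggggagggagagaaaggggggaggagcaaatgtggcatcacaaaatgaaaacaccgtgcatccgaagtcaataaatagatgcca
Spp1: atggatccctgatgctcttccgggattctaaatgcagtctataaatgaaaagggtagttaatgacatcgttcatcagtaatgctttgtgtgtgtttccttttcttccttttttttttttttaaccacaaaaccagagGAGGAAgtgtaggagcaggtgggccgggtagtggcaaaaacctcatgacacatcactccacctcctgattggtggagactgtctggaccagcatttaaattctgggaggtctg

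GAGGAA was found on the minus strand of the Trem2 window, 40 to 35 bases before the start, and on the plus strand of the Spp1 window, 113 to 108 bases before it. The same 6 letters occur on either strand in 23.3% of 32851 RefSeq promoters of that length. Promoters were found for 6 of 7 members, all but Tyrobp, in 9 entries. Of these, Apoe (starts 1 and 3) also held GAGGAA, and Cd9 held CATGTG (minus strand, 38 to 33 bases before the start), a core bound by MITF and TFE factors that is in 12.3% of promoters. CACGTG (6.02% of promoters) and TGACTCA (4.46%) matched none of the members' entries. The genes themselves lie, in GENCODE vM21 on GRCm38, at chr17:48346401-48354147 (Trem2), chr7:30413760-30417585 (Tyrobp), chr6:49036546-49070929 (Gpnmb), chr5:104435118-104441050 (Spp1), chr7:19696109-19699188 (Apoe), chr14:47367751-47386160 (Lgals3) and chr6:125460266-125494791 (Cd9).

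The 7 genes did not share a cell type. Only Trem2 and Apoe had their highest mean in C1q barcodes among 10 classes of barcodes, and 5 members were highest elsewhere. Trem2 was the member nearest to confined to macrophages, with a mean of 147 ± 45.3 CPM (SD, n = 5 libraries) in C1q barcodes, 72.1 ± 29.3 in the 156 monocyte and 14.7 ± 14.9 in the 205 neutrophil barcodes, and at most 1.76 CPM in endothelial, fibroblast, mural, T or NK, B, dendritic and Schwann barcodes. Tyrobp, an adaptor used by many myeloid and NK receptors, was at 8421 ± 1358 CPM in neutrophil barcodes, 3769 ± 397 in monocyte barcodes and 2072 ± 263 in C1q barcodes. Apoe, the lipid carrier, reached 13538 ± 3083 CPM in C1q barcodes and 7304 ± 898 in the 115 barcodes of Schwann-like cells, where myelin genes were the markers.

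Lgals3, which encodes the secreted carbohydrate-binding protein galectin-3, was highest in monocyte (1878 ± 591 CPM) and dendritic barcodes (1421 ± 183), followed by C1q barcodes (729 ± 372), whose range overlapped that of T or NK barcodes (359 ± 171). Cd9, a tetraspanin of many cells, was at 3419 ± 241 CPM in Schwann, 1352 ± 345 in neutrophil, 849 ± 171 in fibroblast, 635 ± 154 in dendritic, 539 ± 58.8 in endothelial, 240.4 ± 70.0 in monocyte, 222 ± 42.1 in mural and 207 ± 62.1 in C1q barcodes. Gpnmb, a lysosomal and surface glycoprotein, was highest in Schwann barcodes at 87.5 ± 27.4 CPM, from 29 UMIs in all. Its levels in fibroblast (12.2 ± 4.71) and C1q barcodes (10.5 ± 9.68) overlapped. Spp1, which encodes the secreted matrix protein osteopontin, had its highest mean in T or NK barcodes (222 ± 203 CPM), ahead of neutrophil (94.9 ± 99.2), dendritic (38.5 ± 34.5) and C1q barcodes (35.0 ± 33.0), with overlapping ranges.

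**Figure D1:**
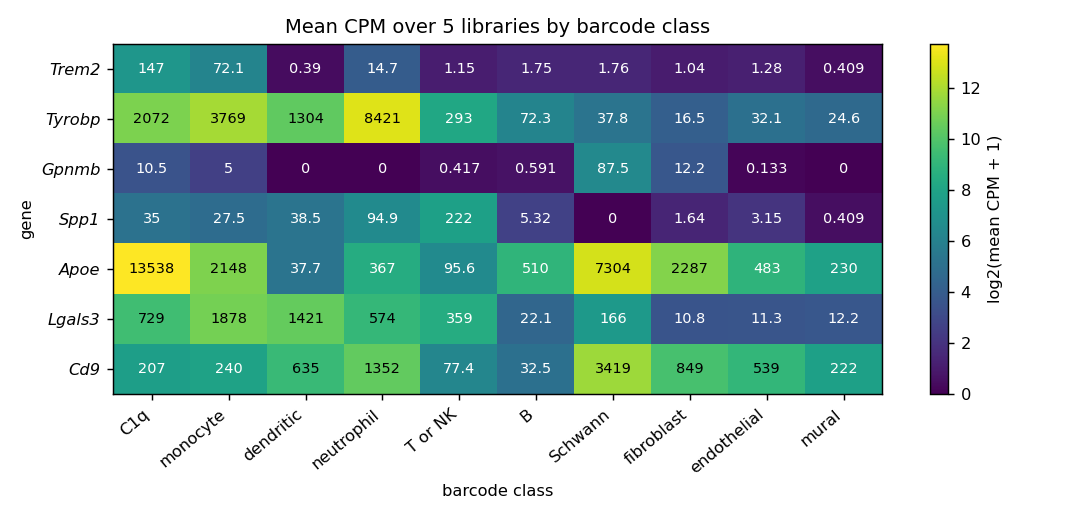
Mean CPM over 5 libraries (numbers in the cells; colour is log2 of mean CPM + 1) for each member gene (rows) in 10 barcode classes (columns). Trem2 and Apoe peak in C1q barcodes, Tyrobp in neutrophils, Lgals3 in monocytes, Spp1 in T or NK barcodes, and Gpnmb and Cd9 in Schwann barcodes.

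C1q barcodes were set against the mean, on the log2 scale, of endothelial, fibroblast, mural, T or NK and B barcodes of the same library. By edgeR's quasi-likelihood test (adjusted p under 0.05) 6 of 7 members were higher in C1q barcodes, where 34.3% of 13027 genes tested were higher and 20.4% lower. A mean of log2 values gives lineages near 0 the same weight as the others. T or NK barcodes by themselves had a higher Spp1 mean (222 CPM) than C1q barcodes (35.0 CPM). The log2 fold changes were 7.26 ± 0.18 (SE) for Trem2, 5.62 ± 0.21 for Tyrobp, 5.12 ± 0.11 for Apoe, 5.06 ± 0.15 for Lgals3, 4.60 ± 0.52 for Gpnmb and 2.80 ± 0.43 for Spp1. Cd9 was the exception, at 0.24 ± 0.14 (adjusted p = 0.143, edgeR), and at -0.09 with at least 10 C1q UMIs. Without control replicate 2 the Cd9 value was 0.36 and passed (adjusted p = 0.0253, edgeR). The folds of Gpnmb and Spp1 are fitted values and no measured ratios. Gpnmb had 0 UMIs in mural, 2 in B and 4 in T or NK barcodes, and Spp1 had 1 in mural barcodes. Fibroblast barcodes had a Gpnmb mean of 12.2 CPM, against 10.5 CPM in C1q barcodes. Of the pathway lists, 11 of 12 genes of Trem2 and Tyrobp signalling and 25 of 26 lipid and lysosome genes tested were also higher. Of 9 other receptors that pair with Tyrobp, 5 were tested and all of these were higher. Examples were Clec5a (7.58), Card9 (6.35), Tfec (6.84) and Cd68 (4.86). Genes with few UMIs outside C1q barcodes passed the count filter through C1q barcodes, so their calls are descriptions. Trem2, with a mean of at most 1.75 CPM in the lineages it was set against, is 1 of them. Among receptors and partners of the members 11 of 18 were higher and 1 lower, with Cd44, an osteopontin receptor, at 3.09.

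Between genotypes, the receptor Trem2 was at 74.3 CPM in the C1q barcodes of control replicate 1 and 179 CPM in those of control replicate 2. The disease libraries were at 176, 131 and 175 CPM. Control replicate 1 was low, and control replicate 2 was above every disease library, so the groups overlapped. The log2 fold change, disease over control, was 0.44 ± 0.38 (adjusted p = 0.585, edgeR), and without control replicate 1 it was -0.06. In C1q barcodes without markers of other lineages Trem2 was at 85.4 and 154 CPM in control and 181, 161 and 208 CPM in disease libraries. There the groups did not overlap, at 0.74 ± 0.27 (adjusted p = 0.181, edgeR), which passed only with every counted gene tested (adjusted p = 0.0487). Its adaptor Tyrobp was at 1738 and 1846 CPM in controls and 2238, 2335 and 2202 CPM in disease libraries, with no overlap. That difference of 0.43 ± 0.18 on the log2 scale did not pass the test (adjusted p = 0.305, edgeR). Neutrophil markers, of the class where Tyrobp was highest, summed to 67.7 and 36.2 CPM in control and 470, 535 and 220 CPM in disease C1q barcodes. In C1q barcodes without markers of other lineages Tyrobp was at 1881 and 1732 CPM in control and 2395, 2540 and 2408 CPM in disease libraries. That difference of 0.55 ± 0.17 did not pass either (adjusted p = 0.118, edgeR), nor with every counted gene tested (adjusted p = 0.143).

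Apoe was at 11802 and 16811 CPM in control and 16163, 9367 and 13548 CPM in disease C1q barcodes. These groups overlapped throughout, with a log2 fold change of -0.05 ± 0.27 (adjusted p = 0.952, edgeR). Disease replicate 4 had the lowest value and control replicate 2 the highest. Without control replicate 2 the log2 value was 0.23.

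Lgals3 was at 436 and 356 CPM in control and 621, 1213 and 1017 CPM in disease C1q barcodes, all 3 disease libraries lying above both controls. On average that was 396 ± 56.8 CPM (SD, n = 2) against 950 ± 302 (SD, n = 3), a log2 fold change of 1.38 ± 0.36 with an adjusted p of 0.108 by edgeR. The call depended on the fit: the adjusted p was 0.00711 with DESeq2, 0.0367 by edgeR with every gene that had a count, and 0.0354 without disease replicate 3. After each C1q barcode was thinned to 1000 UMIs, a Lgals3 UMI was found in 16.8% and 14.0% of control and 16.8%, 39.3% and 26.2% of disease barcodes, so that disease replicate 3 equalled control replicate 1. In disease replicate 3, 2 barcodes held 419 and 408 of the 2325 Lgals3 UMIs. Without the 2 highest barcodes of each library the values were 407 and 246 CPM in control and 404, 1190 and 901 CPM in disease libraries, and the groups met. Lgals3 was highest in monocyte and dendritic barcodes, and monocyte markers in C1q barcodes summed to 124 and 70.0 CPM in control and 112, 291 and 235 CPM in disease libraries. Dendritic markers summed to 21.4 and 3.15 against 25.9, 96.5 and 67.9 CPM. In C1q barcodes without markers of other lineages Lgals3 was at 401 and 451 CPM in control and 464, 1094 and 1001 CPM in disease libraries. The groups did not overlap there, at 1.13 ± 0.38 (adjusted p = 0.144, edgeR), which passed with every counted gene tested (adjusted p = 0.000131).

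Cd9 was at 191 and 107 CPM in control and 249, 262 and 224 CPM in disease C1q barcodes, again without overlap, and the log2 fold change was 0.81 ± 0.29 (adjusted p = 0.221, edgeR). Among barcodes with at least 10 C1q UMIs it was at 98.2 and 99.5 CPM against 202, 201 and 178 CPM. Here the controls lay close together and Cd9 passed (1.07 ± 0.20, adjusted p = 0.0277, edgeR), as it did in the 2036 C1q barcodes with fewer than 3 UMIs of each list of other lineages' markers (1.07 ± 0.21, adjusted p = 0.0232, edgeR). Fibroblast markers, of cells in which Cd9 was higher than in macrophages, summed to 3409 and 869 CPM in control and 1740, 2629 and 1624 CPM in disease C1q barcodes. With at least 10 C1q UMIs they were at 455 and 290 CPM against 585, 452 and 261 CPM. Neutrophils also held more Cd9 than C1q barcodes, and neutrophil markers were higher in every disease library than in both controls: with at least 10 C1q UMIs they summed to 48.7 and 36.6 CPM in control and 524, 262 and 248 CPM in disease libraries. Barcodes with 3 or more UMIs of the neutrophil list are left out of the 2036 barcodes in which Cd9 passed, but those with fewer remain. The part of neutrophil RNA in the Cd9 values was not tested.

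Gpnmb was the 1 member called higher in the C1q barcodes of diseased hearts, at 1.37 and 1.18 CPM in control and 24.3, 11.3 and 14.2 CPM in disease libraries. Every disease library was above both controls, and the log2 fold change was 3.70 ± 0.43 (adjusted p = 0.00859, edgeR). Gpnmb passed the count filter through the disease libraries only, so that a low level in both groups would not have been tested, and the call is a description. With every counted gene tested, which needs no filter, the adjusted p was 0.000302 (edgeR). Of 12132 genes tested, 7 were higher (0.0577%) and 609 lower (5.02%), and 2044 had an unadjusted p under 0.05. The median log2 fold change was 0.81 over the 7 members and 0.00 over all genes tested. Counted by separation alone, 4 of 7 members (Tyrobp, Gpnmb, Lgals3 and Cd9) had all disease libraries above all controls, as had 12.4% of the genes tested. The median and this count include Gpnmb and are descriptions. With at least 10 C1q UMIs, Gpnmb (4.49 ± 0.43, adjusted p = 0.00326, edgeR), which again passed the filter through the disease libraries only, and Cd9 were called higher, where 0.134% of genes were higher and 6.11% lower, and 4 of 7 members again lay apart, against 13.7% of genes.

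The Gpnmb difference came from few barcodes. In disease replicate 3, 85 of its 91 UMIs in C1q barcodes were in 1 barcode, in replicate 4 63 of 153 and in replicate 5 33 of 76. The 16 and 3 control UMIs were spread over 15 and 2 barcodes. Barcodes with at least 5 Gpnmb UMIs numbered 1, 6 and 2 in the disease libraries (0.161%, 0.309% and 0.237% of C1q barcodes) and 0 of 1748 and 0 of 488 in the controls, which allows shares of up to 0.172% and 0.615%. At this depth the disease replicate 3 share could not be told from 0 in either control, nor any disease share in control replicate 2. All 9 also held at least 3 UMIs of another lineage's marker list, as did 72.8% and 39.8% of all control and 55.1%, 67.7% and 57.4% of all disease C1q barcodes. Among C1q barcodes at least as deep as the shallowest of the 9 the shares were 85.1% and 66.3% against 81.0%, 81.9% and 74.4%. In the C1q barcodes without them, Gpnmb was at 0 and 1.58 CPM in control and 2.33, 1.26 and 1.58 CPM in disease libraries, from 12 UMIs in all, and the groups overlapped. Taking out only the 9 barcodes left a log2 fold change of 0.90 ± 0.62 (adjusted p = 0.618, edgeR, every gene with a count tested), and Gpnmb then had too few UMIs to pass the usual count filter. Leaving out control replicate 1, control replicate 2 or disease replicate 5 also ended the call, with adjusted p of 0.0788, 0.062 and 0.066 by edgeR and log2 values of 3.85, 3.65 and 3.79.

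These 9 barcodes were deep, with 7851 to 23444 UMIs (median 16777), and were chosen after their Gpnmb values were seen. All 9 had UMIs of Tyrobp, Apoe, Lgals3 (21 to 408 UMIs) and Cd9, and 8 had UMIs of Trem2 and of the fatty acid carrier Fabp5. The lysosomal genes Ctsd and Cd68, the haem-degrading enzyme gene Hmox1 and the lipid droplet gene Plin2 had UMIs in all 9. Spp1 was in 5 of the 9, and 1 of those, in disease replicate 4, held 340 Spp1 UMIs. Lyve1, of resident macrophages, and the fibroblast gene Col1a1 were at 0 in all 9, while Dcn, another fibroblast gene, had 1 to 9 UMIs in 5 and Ccr2, of recruited cells, had 1 to 11 in 4.

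Spp1 was at 12.3 and 20.9 CPM in control and 12.0, 90.6 and 39.2 CPM in disease C1q barcodes. Disease replicate 3 lay below both controls, the groups overlapped, and the log2 fold change was 1.72 ± 0.85 (adjusted p = 0.368, edgeR). T or NK markers in the same C1q barcodes summed to 240 and 1.18 CPM in control and 24.8, 717 and 180 CPM in disease libraries. In C1q barcodes without markers of other lineages Spp1 was at 7.58 and 32.3 CPM against 9.31, 10.1 and 7.37 CPM, and the log2 value became -0.91 (adjusted p = 0.387, edgeR). The part of RNA from T cells in the C1q value was not tested further.

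**Figure D2:**
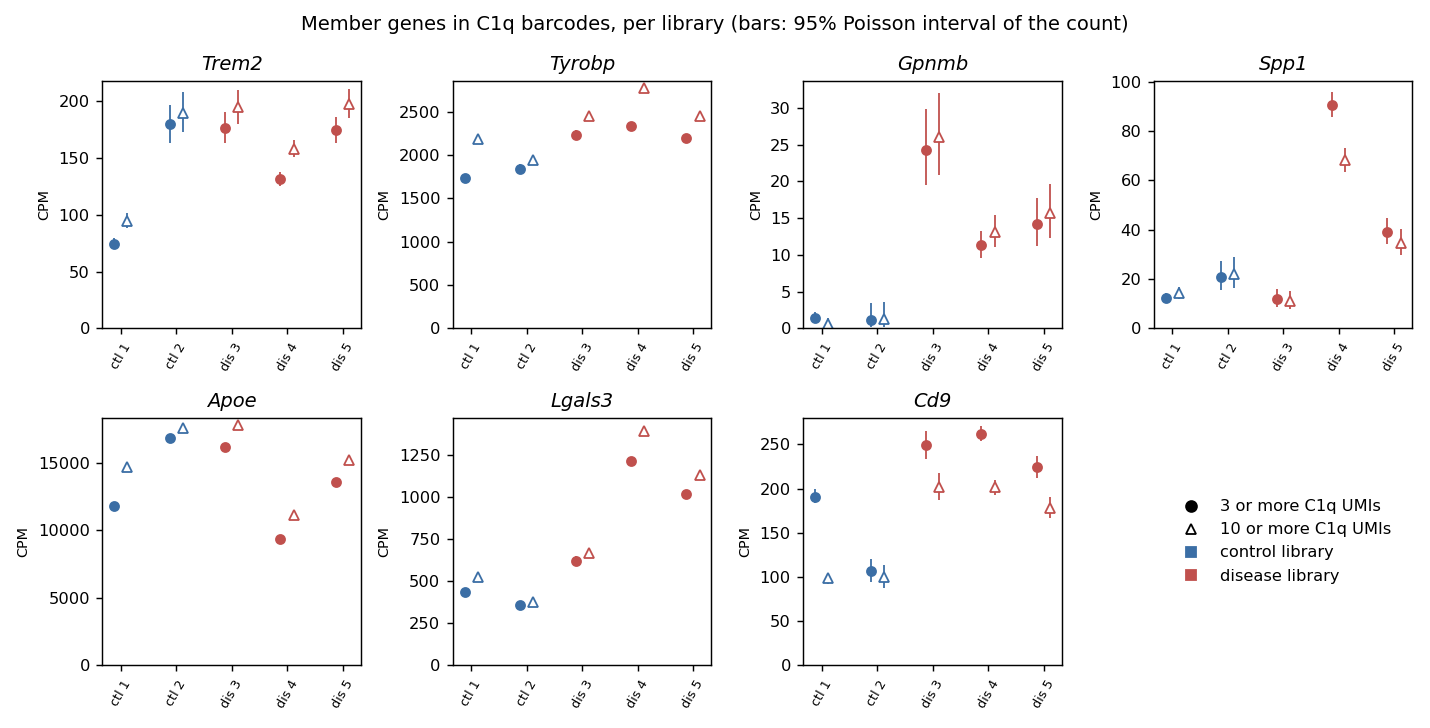
CPM of each member (1 panel each) in the C1q barcodes of 2 control (blue) and 3 disease (red) libraries; filled circles are the gate of 3 C1q UMIs, open triangles that of 10, and bars are 95% Poisson intervals of the count. Gpnmb, Lgals3, Cd9 and Tyrobp lie higher in every disease library than in both controls, while Trem2, Spp1 and Apoe overlap.

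**Figure D3:**
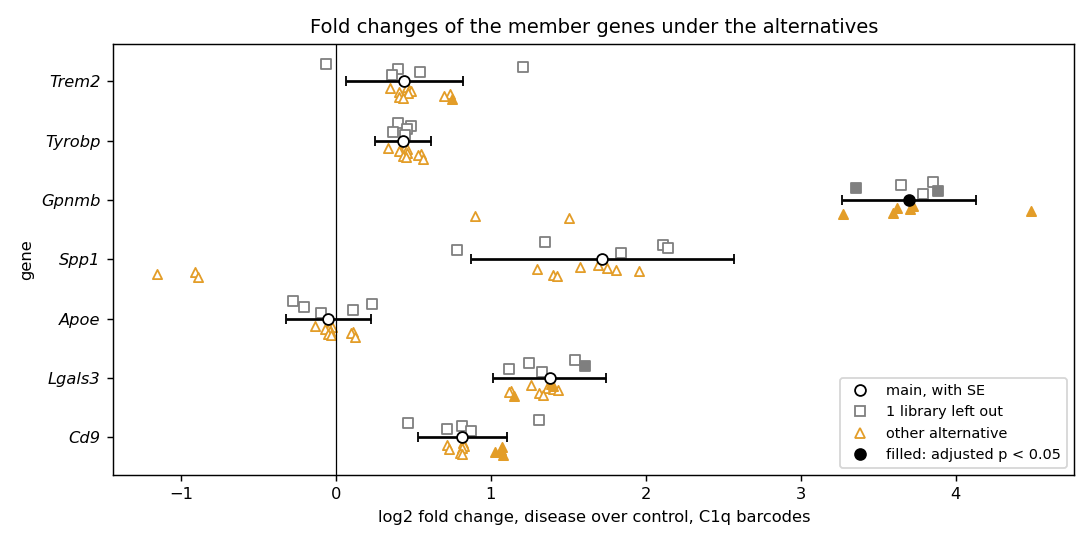
Log2 fold change, disease over control, in C1q barcodes for each member. Circles with SE bars are the values in the text, squares leave out 1 library, triangles are other alternatives, and filled symbols have an adjusted p under 0.05. Gpnmb lies at 3.70 with all libraries and at 0.90 without its 9 richest barcodes, and Trem2, Spp1 and Apoe have symbols on both sides of 0.

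The other 6 genes called higher in C1q barcodes were S100a9 (4.14), Retnlg (4.09), Trem1 (3.30), Chil3 (3.27), Slpi (2.59) and Clec4d (1.36), most of them known from neutrophils and monocytes, and they are named because so few passed. The sum of neutrophil markers was higher in each disease library than in both controls, as given for Tyrobp, and its part in these calls was not tested. S100a9 and Retnlg are themselves in that marker list, so the sum is no separate value for them. S100a9 alone was at 16.7 and 3.93 CPM in control and 225, 232 and 98.8 CPM in disease libraries. Trem1, which pairs with Tyrobp on neutrophils and monocytes, rested on 0.94 and 0 CPM in control and 8.01, 4.72 and 7.09 CPM in disease libraries, with an adjusted p of 0.04995 by edgeR, and passed the count filter through the disease libraries only, so its call too is a description.

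Of all genes tested in C1q barcodes 0.0577% were higher and 5.02% lower. Of the 4 pathway lists, Trem2 and Tyrobp signalling had 0 of 12 genes called by edgeR in C1q barcodes and 0 by DESeq2, with 1 at an unadjusted p under 0.05 and a median log2 fold change of -0.08. The largest were Hcst, an adaptor like Tyrobp (0.97, adjusted p = 0.285), and the exchange factor Vav3 (-0.65, adjusted p = 0.438). Of other receptors that pair with Tyrobp, 8 were tested and Trem1 alone was called (median 0.55). Receptors and partners of the members had 2 of 17 called, both lower: Itgb1, an integrin chain that binds osteopontin (-1.12 ± 0.16, adjusted p = 0.0161), and Igsf8, a tetraspanin partner (-1.75 ± 0.26, adjusted p = 0.0164). Of 27 lipid and lysosome genes 1 was called, lower, and the list had a median of 0.26. Itgb1 and Igsf8 were also lower elsewhere: Itgb1 was at -1.08 and -1.14 and Igsf8 at -1.61 and -1.88 in endothelial and fibroblast barcodes. Without disease replicate 5 edgeR called 0 genes in C1q barcodes of 12559 tested, with 1339 at an unadjusted p under 0.05, so the calls for Trem1, Itgb1, Igsf8 and the other genes there were lost without that library.

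In other lineages Cd9 in fibroblast barcodes was at 693 and 637 CPM in control and 938, 965 and 1012 CPM in disease libraries. The groups did not overlap and Cd9 was called higher by 0.51 ± 0.12 on the log2 scale (adjusted p = 0.0452, edgeR), in a fit where 0.307% of 13350 genes were higher and 12.4% lower. The call was lost without control replicate 1 (adjusted p = 0.1003), control replicate 2 (0.275), disease replicate 3 (0.0584) or disease replicate 5 (0.173), and with every counted gene tested (0.0702, edgeR). In endothelial barcodes, where 0.336% of genes were higher and 11.8% lower, Cd9 was at 487 and 464 CPM against 590, 570 and 583 CPM. That separation amounted to 0.22 ± 0.09 and did not pass (adjusted p = 0.228, edgeR).

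Lgals3 was highest in disease replicate 4 also in cells that hold little of it. In fibroblast barcodes it was at 9.10 and 3.47 CPM in control and 5.16, 26.3 and 9.68 CPM in disease libraries. The endothelial values were 7.24 and 3.65 against 4.96, 31.3 and 9.26 CPM. Both overlapped between groups, at log2 values of 1.02 ± 0.77 (adjusted p = 0.438) and 1.32 ± 0.82 (adjusted p = 0.379, edgeR), and without disease replicate 4 they were 0.14 and 0.32. Gpnmb in fibroblast barcodes was at 8.26 and 9.61 CPM in control and 20.1, 12.8 and 10.1 CPM in disease libraries, which did not overlap but gave only 0.65 ± 0.31 (adjusted p = 0.243, edgeR).

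Whether a genotype difference was larger in macrophages than elsewhere was tested as the difference of 2 differences. No gene passed: 0% of 14493 genes for C1q against fibroblast and 0% of 13722 for C1q against endothelial barcodes by edgeR, with 648 and 572 genes at an unadjusted p under 0.05, and no other tool was run. Gpnmb had 3.07 ± 0.32 against fibroblast (adjusted p = 0.196) and 3.23 ± 1.55 against endothelial barcodes (adjusted p = 0.933). Lgals3 had 0.53 ± 0.43 and 0.08 ± 0.50, and Cd9 0.45 ± 0.28 and 0.48 ± 0.25. With every counted gene tested, Gpnmb, its 9 richest barcodes included, passed against fibroblast (adjusted p = 0.00497) and not against endothelial barcodes (adjusted p = 0.998), where Spp1 passed (2.06 ± 0.45, adjusted p = 0.0242, edgeR). This Spp1 value includes C1q barcodes with T or NK markers, without which, and without those of other lineages, the genotype difference in C1q barcodes was -0.91.

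Much of the Spp1 RNA was in T or NK barcodes, but not in every library. They held 449 of 677 and 2 of 142 Spp1 UMIs of all kept barcodes in control and 55 of 112, 4778 of 6257 and 1033 of 1347 in disease libraries. C1q barcodes held 144, 53, 45, 1229 and 210, more than T or NK barcodes in control replicate 2 alone. T or NK barcodes were at 145 and 5.36 CPM in control and 97.5, 501 and 360 CPM in disease libraries. Control replicate 1 was above disease replicate 3, and in the latter 48 of 55 UMIs were in 1 barcode. The log2 fold change was 2.08 ± 0.93 (adjusted p = 0.316, edgeR), where 0.0307% of 9782 genes were higher, 5.48% lower and the median gene was at 0.14. DESeq2 gave an adjusted p of 0.672, whereas edgeR with every counted gene gave 2.68e-06, and without control replicate 1 the log2 value was 5.87.

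A Spp1 UMI was found in 10.7% and 1.08% of control and 2.92%, 22.5% and 15.2% of disease T or NK barcodes, and in at most 2.28% of endothelial barcodes, which should lack it. Among barcodes with Cd8a or Cd8b1, of cytotoxic T cells, and no Cd4, the share was 10.9% of 384 and 0 of 30 in the controls and 4.84% of 62, 444 of 1777 barcodes and 15.7% of 452 in the disease libraries. For 30 barcodes a count of 0 allows up to 10.0%. T or NK barcodes in none of the Cd8, Cd4 and NK classes had a Spp1 UMI in 10.3% of 107 in control replicate 1, 0 of 34 in control replicate 2, 0 of 48 in disease replicate 3, and 11.3% of 240 and 12.5% of 72 in disease replicates 4 and 5. The counts of 0 allow up to 8.82% and 6.25%. Barcodes with Cd4 and no Cd8a or Cd8b1 had one in 5.41% of 37, 9.09% of 132 and 16.1% of 31 in control replicate 1 and disease replicates 4 and 5, in 0 of 15 in control replicate 2 (up to 20%) and in 1 of 21, with 48 UMIs, in disease replicate 3. Of barcodes with the NK gene Ncr1 and no Cd3 gene, 3 of 15 and 1 of 14 in control and 0 of 6 (up to 50.0%), 9 of 38 and 1 of 10 in disease libraries had one. Differences between these classes were not tested. Cycling T or NK barcodes had a Spp1 UMI in 30.0% of 40 barcodes in control replicate 1, 32.0% of 172 in disease replicate 4 and 32.6% of 46 in disease replicate 5. Those that did not cycle had one in 9.15%, 21.7% and 13.7%, at lower depth (median 4639, 3584 and 4179 UMIs against 9216, 7197 and 9563). In control replicate 2 and disease replicate 3, 0 of 2 and 1 of 8 cycling barcodes had one, against 1 of 91 and 3 of 129 that did not cycle. Lgals3 was also carried by these cells, at 348 and 137 CPM in control and 255, 511 and 543 CPM in disease T or NK barcodes. Control replicate 1 exceeded disease replicate 3, and its log2 fold change was 0.93 ± 0.44 (adjusted p = 0.335, edgeR).

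**Figure D4:**
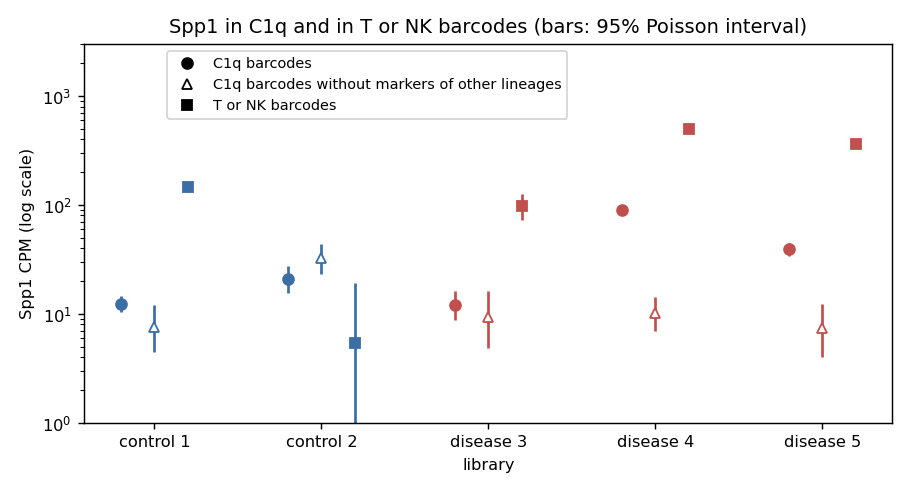
Spp1 CPM (log scale) in each library for C1q barcodes (filled circles), C1q barcodes without markers of other lineages (open triangles) and T or NK barcodes (squares); blue is control, red is disease, and bars are 95% Poisson intervals. T or NK barcodes exceed C1q barcodes in 4 of 5 libraries, and without other lineages' markers the disease libraries lie at 7.37 to 10.1 CPM.

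Within C1q barcodes 3 subsets were defined by genes other than the members: resident (Lyve1, Timd4, Folr2, Cd163), recruited (Ccr2, Plac8, Ly6c2) and interferon (Cxcl9, Cxcl10, Fcgr4). Of the 6 members tested, Lgals3, Cd9 and Spp1 were higher and Apoe lower in recruited and in interferon than in resident barcodes. For Spp1 this is a description, for the reason given below. Resident barcodes were 39.4% and 64.5% of C1q barcodes in control and 61.2%, 24.7% and 43.9% in disease libraries. Interferon barcodes were 18.8% and 6.15% against 8.35%, 45.1% and 21.9%, and recruited ones 3.37% to 5.93% (20 to 81 barcodes). Neither the resident nor the interferon share separated the groups.

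Lgals3 was low in resident barcodes, at 302 and 186 CPM in control and 237, 639 and 400 CPM in disease libraries. It was at 1507 and 420 against 2968, 1882 and 1679 CPM in recruited, and at 662 and 988 against 1965, 1533 and 1898 CPM in interferon barcodes. All 5 libraries had less in resident than in either other subset, with log2 fold changes of 2.33 ± 0.28 (adjusted p = 7.87e-05) for recruited and 2.23 ± 0.25 (adjusted p = 2.85e-05, edgeR) for interferon over resident. In recruited and in interferon barcodes the 3 disease libraries were above both controls, which was not tested. In recruited barcodes of disease replicate 3 this rested on 1 barcode, the one with 85 Gpnmb UMIs, which held 408 of 523 Lgals3 UMIs. Without the highest barcode of each library they were at 1179 and 311 against 708, 1598 and 1559 CPM, so that the groups overlapped, and interferon barcodes at 636 and 660 against 1166, 1516 and 1688 CPM, which did not. Cd9 was also higher, by 1.64 ± 0.19 in recruited (adjusted p = 6.35e-05) and 1.72 ± 0.14 in interferon barcodes (adjusted p = 1.98e-06, edgeR), from 53.4 and 62.6 CPM in control and 136, 78.7 and 102 CPM in disease resident barcodes.

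Apoe went the other way. Resident barcodes had 18893 and 18846 CPM in control and 19944, 14630 and 18993 CPM in disease libraries, and recruited barcodes had 5862 and 12646 against 7933, 3271 and 7165 CPM. Apoe was lower in recruited by 1.28 ± 0.16 (log2 fold change -1.28, adjusted p = 0.00012, edgeR) and in interferon barcodes at -0.63 ± 0.11 (adjusted p = 0.000857, edgeR). Trem2 did not differ beyond the spread, at 0.21 ± 0.19 and -0.31 ± 0.18 (adjusted p = 0.544 and 0.200, edgeR). Tyrobp was at 0.21 ± 0.11 (adjusted p = 0.224) in recruited and higher by 0.31 ± 0.09 in interferon barcodes (adjusted p = 0.0234, edgeR). That last call was lost in 4 of 5 fits that left out 1 library, all but the fit without disease replicate 3 (adjusted p up to 0.121).

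Of the 6 members tested between subsets, Spp1 had the largest fold. C1q barcodes with T or NK markers were kept in the subsets, and the part of RNA from T cells in these Spp1 values was not tested. Resident barcodes were at 0.887 and 3.36 CPM in control and 2.11, 5.50 and 6.35 CPM in disease libraries, and recruited barcodes at 54.6 and 53.6 against 62.4, 966 and 127 CPM. Recruited exceeded resident in all 5 libraries, by 5.93 ± 0.43 on the log2 scale (adjusted p = 1.12e-06, edgeR), and interferon by 3.42 ± 0.30 (adjusted p = 3.81e-06, edgeR). Resident barcodes held 4 and 6 Spp1 UMIs in control and 5, 16 and 14 in disease libraries. Spp1 passed the count filter through the recruited and interferon barcodes, so both calls are descriptions. Of 561 Spp1 UMIs in the 81 recruited barcodes of disease replicate 4, 340 were in 1 barcode. Without the highest barcode of each library, recruited barcodes were at 39.8 and 9.68 CPM in control and 6.16, 387 and 46.3 CPM in disease libraries, and without disease replicate 4 the log2 value was 4.90. Gpnmb had 3 UMIs in all resident barcodes and was at 8.53 and 0 CPM in control and 482, 24.1 and 169 CPM in disease recruited barcodes. Of its 85, 14 and 64 UMIs there in disease libraries 85, 12 and 33 were in 1 barcode each. Gpnmb did not pass the count filter here. Resident barcodes were at 0 in 4 of 5 libraries, so its values are given with no test and no fold.

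The subset contrasts changed many genes: 8.15% of 7943 genes were higher and 7.92% lower in recruited, and 16.9% of 9518 higher and 14.9% lower in interferon barcodes. Of 25 lipid and lysosome genes tested, 7 were higher and 7 lower in recruited barcodes (median -0.10, all genes -0.06), with Fabp5 at 2.27, the acid phosphatase Acp5 at 1.73 and the MITF relative Tfec at -2.10. In interferon barcodes 13 of 26 were higher and 5 lower (median 0.34, all genes -0.03). Sirpb1a, a Tyrobp-paired receptor, was higher in both (5.95 and 5.30), and Siglech, also Tyrobp-paired, was at -2.67 in recruited barcodes.

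**Figure D5:**
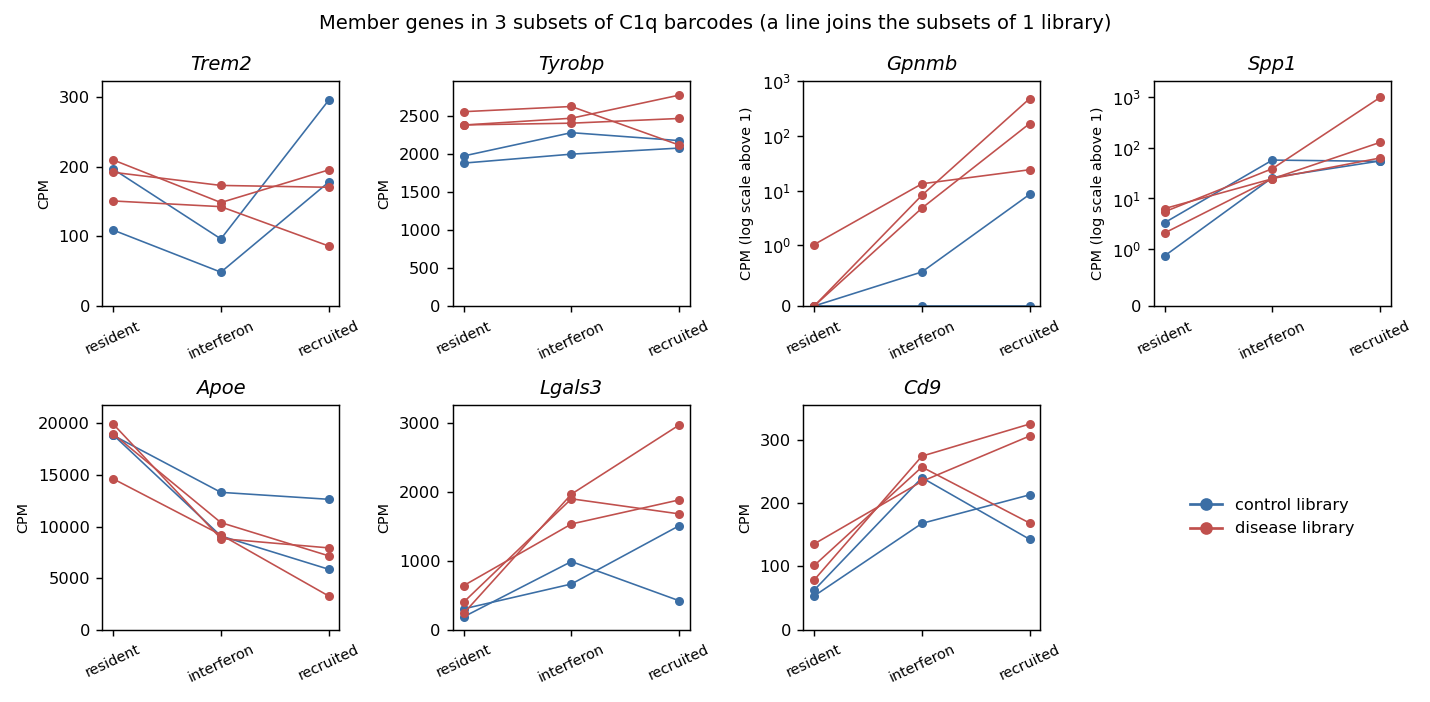
CPM of each member in the resident, interferon and recruited subsets of C1q barcodes; each line joins the subsets of 1 library (blue control, red disease), and Gpnmb and Spp1 use a log scale above 1. Lgals3, Cd9 and Spp1 are lowest and Apoe highest in resident barcodes, and Trem2 shows no common order.

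Barcodes with and without a Trem2 UMI were compared after thinning to 1000 UMIs, which left 97 and 62 with a Trem2 UMI in control and 86, 179 and 118 in disease libraries, or 5.69%, 13.2%, 14.3%, 9.64% and 14.4% of the C1q barcodes deep enough. Unthinned shares were 23.0%, 43.6%, 45.3%, 32.6% and 40.8%. Of 3755 genes tested, 2.56% were higher and 2.90% lower with Trem2. Among those higher were Lgals3 (0.70 ± 0.12, adjusted p = 5.07e-05), Apoe (0.57 ± 0.08, adjusted p = 4.93e-07) and Tyrobp (0.51 ± 0.09, adjusted p = 2.68e-05, edgeR). Cd9 was at -0.32 ± 0.18 (adjusted p = 0.425, edgeR), and Gpnmb and Spp1 had too few UMIs. Apoe had a UMI in 99.0% and 100% of Trem2 barcodes against 82.8% and 97.3% of the others in the controls, and in 96.5%, 94.4% and 97.5% against 92.0%, 75.3% and 87.4% in the disease libraries.

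Genes lower in the Trem2 barcodes that were named by the size of their change included Tm4sf1 (-4.83), Gpihbp1 (-4.19) and Egfl7 (-4.17), each known from endothelium. Those higher by the same ranking began with Tmem205 (1.12), Ddx18 (1.12), Lyz1 (1.11), Tctex1d2 (1.07) and Dpep2 (1.04). Tmem141 (0.94), Gm21188 (0.83), Ms4a4a (0.82), Ntpcr (0.79) and Cx3cr1 (0.76) followed. Lyz1, Ms4a4a and Cx3cr1 are known from macrophages. Of these ranked genes only Tmem205 still passed with at least 10 C1q UMIs (1.17, adjusted p = 0.0471, edgeR). Of 21 lipid and lysosome genes tested 9 were higher (2.56% of all genes), led by Cd68 (0.71), and 2 lower (2.90% of all genes), the fatty acid carriers Fabp5 (-1.32) and Cd36 (-1.06), both also made by endothelium. With at least 10 C1q UMIs, where 0.121% of 3312 genes were higher and 0.121% lower, Apoe still passed (0.24 ± 0.06, adjusted p = 0.0245, edgeR), whereas Lgals3 (0.37 ± 0.11, adjusted p = 0.103) and Tyrobp (0.17 ± 0.07, adjusted p = 0.520) no longer did. Of the 4 genes lower there, 3 are known from other cells: Fabp4 (-0.96) and Sparcl1 (-1.99) from endothelium and Dcn (-0.59) from fibroblasts. Once barcodes with other lineages' markers were left out as well, Apoe did not pass (0.23 ± 0.06, adjusted p = 0.0607, edgeR) and Trem2 itself was the 1 gene higher.

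Over 50 sums of lineage by library, the genes whose log2(CPM + 1) followed Trem2 most closely among 5410 genes were Csf1r (r = 0.87), Gm21188 (0.86), Tlr8 (0.86), Lilra5 (0.85) and Lair1 (0.85). For Gpnmb they were C4b (0.82), Gas7 (0.81), Gpm6b (0.80), Lpar1 (0.77) and Scamp5 (0.76), and for Spp1 Gpr65 (0.76), Rgs1 (0.75), Selplg (0.75), Slc37a2 (0.73) and Evi2a (0.72). Between members, Trem2 had r = 0.59 with Tyrobp and 0.11 with Gpnmb. The sums share libraries and depth, so these values describe the pattern only.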

How the data were processed

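UMI counts per gene and barcode were deposited by the authors as filtered 10x matrices, not normalized; per the file headers they came from Cell Ranger 3.1.0, and the submitters' processing notes list Cell Ranger 3, Seurat 3, GRCh38 and mm10. Per the labels' protocols, hearts were digested, pooled and sorted. Kept barcodes had at least 500 UMIs, 200 genes and at most 10% mitochondrial UMIs. Scrublet (scanpy 1.11.5) ranked doublets and 0.8% per 1000 barcodes was removed, since its own threshold marked 4 of 5588 in control replicate 2. Barcodes below the C1q gate took the lineage with the most marker UMIs, at least 3 and 2 times the next. Counts were summed per library and class, and classes with at least 50 barcodes in every library, and the macrophage subsets whatever their size (20 recruited and 30 interferon barcodes at the fewest), were tested with edgeR 4.0.16 (quasi-likelihood, TMM, filterByExpr, R 4.3.3) and Benjamini-Hochberg adjustment over all genes tested, with library as a block within libraries. DESeq2 1.42.0 was an alternative. Intervals of single shares are Wilson at 95%, and a count of 0 allows 3 counts; both cover counting error only. The members and lists were chosen with earlier results of these data known. The named genes are all 7 members, up to 3 genes with the largest called change per list (or 2 where none was called), genes ranked in the Trem2 split and the 5 most alike. Gene annotation was GENCODE vM21 and promoters RefSeq on GRCm38.p6. Scripts were tested on simulated counts. The values of 1 lipid and lysosome gene and of 1 marker gene are not reported here.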

Additional observations from a re-analysis of the deposited data

How the results depend on the processing

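Member values kept their direction and their side of the threshold in 349 cases over all alternatives, were reversed in 15, gained a call in 14 and lost one in 19. No paired analysis was possible because the groups share no replicate numbers. The alternatives that leave out the Gpnmb-rich barcodes or barcodes with other lineages' markers, singly or with every counted gene tested, were added after seeing the data. Where a value moved, the cause was not tested beyond what is said above. In C1q barcodes the genes called higher, 7 in the text, were 39 with DESeq2, 25 with every counted gene, 15 with at least 10 C1q UMIs, 26 with doublets kept, 23 without Gpnmb-rich barcodes and 239 without other lineages' markers (both with every counted gene), and the last gave 1103 lower. DESeq2 and every counted gene gave 150 and 26 higher in endothelial, 248 and 27 in fibroblast and 7 and 67 in T or NK barcodes, the last with 861 lower. For the Trem2 split, genes higher and lower were 57 and 67 with DESeq2, 33 and 378 with every counted gene, 4 and 4 with at least 10 C1q UMIs, 236 and 262 at 2000 UMIs, and 1 and 4 with at least 10 C1q UMIs and no other markers, while plain library totals gave 63 higher. With every counted gene, 1041 were lower in recruited barcodes, and the group differences gave 8 and 2 against fibroblast and 35 and 3 against endothelial barcodes. Leaving out 1 library at a time gave, for higher and lower, 0 to 17 and 0 to 498 in C1q, 12 to 54 and 777 to 1436 in endothelial, 3 to 76 and 773 to 1738 in fibroblast and 1 to 10 and 75 to 543 in T or NK barcodes, 3997 to 4418 and 2139 to 2717 for C1q against other lineages, 50 to 130 and 85 to 189 for the Trem2 split, 462 to 696 and 334 to 589 for recruited, 1098 to 1594 and 1016 to 1474 for interferon barcodes, 0 to 0 against fibroblast, and 0 to 1 higher against endothelial barcodes. Reversed log2 values were -0.062 for Trem2 without control replicate 1 (up to 1.21 without control replicate 2); for Spp1 -0.91 without other markers, -1.16 with at least 10 C1q UMIs as well and -0.89 with every counted gene; for Apoe 0.23 without control replicate 2 (-0.28, its main direction, without control replicate 1), 0.11 without disease replicate 4, and 0.11, 0.094 and 0.12 under the 3 settings named for Spp1; for Cd9 -0.086 against other lineages with at least 10 C1q UMIs, and 0.32 and 0.50 in the Trem2 split with at least 10, without and with the marker filter; for Lgals3 -0.081 against fibroblast without control replicate 1 (up to 0.91), and -0.36 and -0.18 against endothelial barcodes without control replicate 1 and disease replicate 3 (up to 0.86). With 2 controls the spread between controls rests on 1 difference, and Gpnmb had 16 and 3 UMIs in their C1q barcodes.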
